A study of Homo sapiens with 2 samples.

Results

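Accessible chromatin was described around the genes of the WNT pathway in H1, an established line of human embryonic stem cells. The members were taken by name from the GENCODE annotation: protein-coding genes of the WNT, FZD, DKK, SFRP, RSPO, AXIN and LGR families, with LRP5, LRP6, CTNNB1, APC, LEF1, TCF7, TCF7L1, TCF7L2 and PORCN. They number 55 of 20033 protein-coding genes. The choice went by name and used no measured value, though it was made with earlier results of these data known. The assay was ATAC-seq (Omni-ATAC protocol), where a transposase cuts and tags open DNA. The cells had been frozen, and after thawing they received DNase I against free DNA and a Ficoll step; the labels name no other treatment. There are 2 samples, which form 1 group and share 1 deposited list of accessible regions, and the labels do not say whether they came from separate cultures. The list has no values per sample, so no value below has a replicate error and no test over samples could be made. In such bulk data, fewer cells with an open site and less signal per cell cannot be told apart.

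WNT proteins are secreted lipid-modified ligands that bind Frizzled receptors and the co-receptors LRP5 and LRP6. Binding stops a destruction complex, built on AXIN and APC, from marking beta-catenin for degradation, and beta-catenin then acts in the nucleus with TCF and LEF factors. Secreted DKK and SFRP proteins dampen the signal, and R-spondins acting through LGR receptors strengthen it. In human pluripotent cells the pathway is known for steering cells towards mesoderm and endoderm.

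The list held 236878 summits, the points of highest signal, in 160327 distinct regions. The strength of a summit is given as its fold over background, the authors' own value, which ran from 1.4 upwards with a median of 5.38 over regions, each at its strongest summit. A start region is a region with a summit within 1000 bp of any annotated transcript start of a gene, and its start fold is that of the strongest such summit. A fold given at a particular start, or group of starts, is likewise that of the strongest summit within 1000 bp of it. The remaining regions with a summit inside the gene or within 50 kb of it are called other regions. Start regions were present at 12 of 12 marker genes of pluripotent cells, with start folds from 4.69 at SOX2 to 11.2 at ZFP42. They were also present at 6 of 8 fibroblast, 5 of 5 endoderm, 4 of 4 mesoderm, 3 of 3 neuroectoderm and 2 of 3 trophoblast marker genes, so their presence did not set the labelled cell type apart.

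The sequences below are reference sequence (hg38), 50 bp to either side of a summit, and are shown because they hold strings recognised by the pathway's own factors, by pluripotency factors or by CTCF. Only windows that touch no annotated exon are printed, and a match is a description of the letters, not evidence of binding. The first set holds the TCF/LEF string CTTTGAT or its reverse complement ATCAAAG, in capitals, at the strongest summit of other regions.

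LEF1 (chr4:108117571-108117671, plus strand): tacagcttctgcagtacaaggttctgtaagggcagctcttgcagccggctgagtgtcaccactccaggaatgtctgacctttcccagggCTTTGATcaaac
LGR4 (chr11:27395662-27395762, plus strand): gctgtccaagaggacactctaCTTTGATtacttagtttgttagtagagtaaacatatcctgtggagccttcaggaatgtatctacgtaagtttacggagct
TCF7 (chr5:134100071-134100171, plus strand): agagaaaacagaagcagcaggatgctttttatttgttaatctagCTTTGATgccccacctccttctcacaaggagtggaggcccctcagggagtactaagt
LRP6 (chr12:12133398-12133498, plus strand): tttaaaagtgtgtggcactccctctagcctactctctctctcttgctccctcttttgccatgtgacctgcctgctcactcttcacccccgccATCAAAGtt
LEF1 (chr4:108141619-108141719, plus strand): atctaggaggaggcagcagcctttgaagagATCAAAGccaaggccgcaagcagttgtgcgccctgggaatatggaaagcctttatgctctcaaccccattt

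Start regions of members held the TCF/LEF string, in capitals, only near weaker summits of the region. Those at LGR5, a receptor for R-spondins, and WNT16, a ligand, lay outside exons. The LGR5 summit was 594 bp upstream of the canonical start, the transcript start that GENCODE marks as representative, and the WNT16 summit was 1244 bp downstream of it.

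LGR5 (chr12:71439154-71439254, plus strand): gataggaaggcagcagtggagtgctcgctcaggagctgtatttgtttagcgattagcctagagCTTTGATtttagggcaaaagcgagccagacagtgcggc
WNT16 (chr7:121330194-121330294, plus strand): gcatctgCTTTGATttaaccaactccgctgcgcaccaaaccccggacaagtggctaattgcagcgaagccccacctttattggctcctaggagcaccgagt

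The next set was chosen for strings of pluripotency factors. It shows the OCT-SOX string TTGTNATGC, which is a part of the joint OCT4 and SOX2 element, in regions of TCF7L2 and RSPO3. It also shows the SOX string CTTTGTT (reverse complement AACAAAG) in the strongest other region of any member, near TCF7L1, and the octamer ATGCAAAT (reverse complement ATTTGCAT) in a region 1269 bp downstream of the WNT6 start. The TCF7L1 and WNT6 windows were chosen after their values were seen.

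TCF7L2 (chr10:113054009-113054109, plus strand): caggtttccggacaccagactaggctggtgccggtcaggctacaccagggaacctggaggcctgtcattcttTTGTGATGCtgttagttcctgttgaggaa
RSPO3 (chr6:127163444-127163544, plus strand): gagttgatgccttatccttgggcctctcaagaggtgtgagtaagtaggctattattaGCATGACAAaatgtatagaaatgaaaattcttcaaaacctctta
TCF7L2 (chr10:113053408-113053508, plus strand): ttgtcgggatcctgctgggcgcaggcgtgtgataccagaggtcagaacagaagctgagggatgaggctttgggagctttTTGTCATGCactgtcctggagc
TCF7L1 (chr2:85120065-85120165, plus strand): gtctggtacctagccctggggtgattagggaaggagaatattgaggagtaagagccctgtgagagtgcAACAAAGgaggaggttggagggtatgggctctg
WNT6 (chr2:218861024-218861124, plus strand): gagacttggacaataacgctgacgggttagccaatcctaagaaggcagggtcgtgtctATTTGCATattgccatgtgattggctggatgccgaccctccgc

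The last set holds the CTCF string AGGGGGCGC (reverse complement GCGCCCCCT), from the core of the element bound by CTCF, a factor that organises chromatin loops.

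TCF7L2 (chr10:113108589-113108689, plus strand): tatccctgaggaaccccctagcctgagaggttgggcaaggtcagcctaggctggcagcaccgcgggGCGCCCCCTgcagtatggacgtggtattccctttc
WNT2B (chr1:112466252-112466352, plus strand): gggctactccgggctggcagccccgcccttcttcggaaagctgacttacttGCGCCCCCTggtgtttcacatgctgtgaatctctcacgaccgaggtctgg
RSPO3 (chr6:127187051-127187151, plus strand): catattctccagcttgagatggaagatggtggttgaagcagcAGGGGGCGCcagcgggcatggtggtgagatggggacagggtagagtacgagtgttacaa

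Start regions were present at 50 of the 55 members (90.9%), against 81.1% of all protein-coding genes. The 5 members without one were all ligands. The median start fold over all members, counting absence as 0, was 6.32 against 8.48 over all protein-coding genes, and 40 of 55 members lay below that median. Several start regions were common: 26 of 55 members (47.3%) had 2 or more, against 31.3% of all protein-coding genes. The comparison was not matched for the number of annotated starts, with which such a count can grow. Among 46 further genes of the pathway, described below, the share was 54.3%. The distinct start regions numbered 91, with a median width of 863 bp against 858 bp for all 23933 regions at protein-coding starts, and 68.1% against 63.8% held more than 1 summit. The strongest start summit lay within 200 bp of an annotated start in 32 of the 50 members and upstream of it in 39. These 2 counts have no share over all protein-coding genes beside them and describe the members only.

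**Figure D1:**
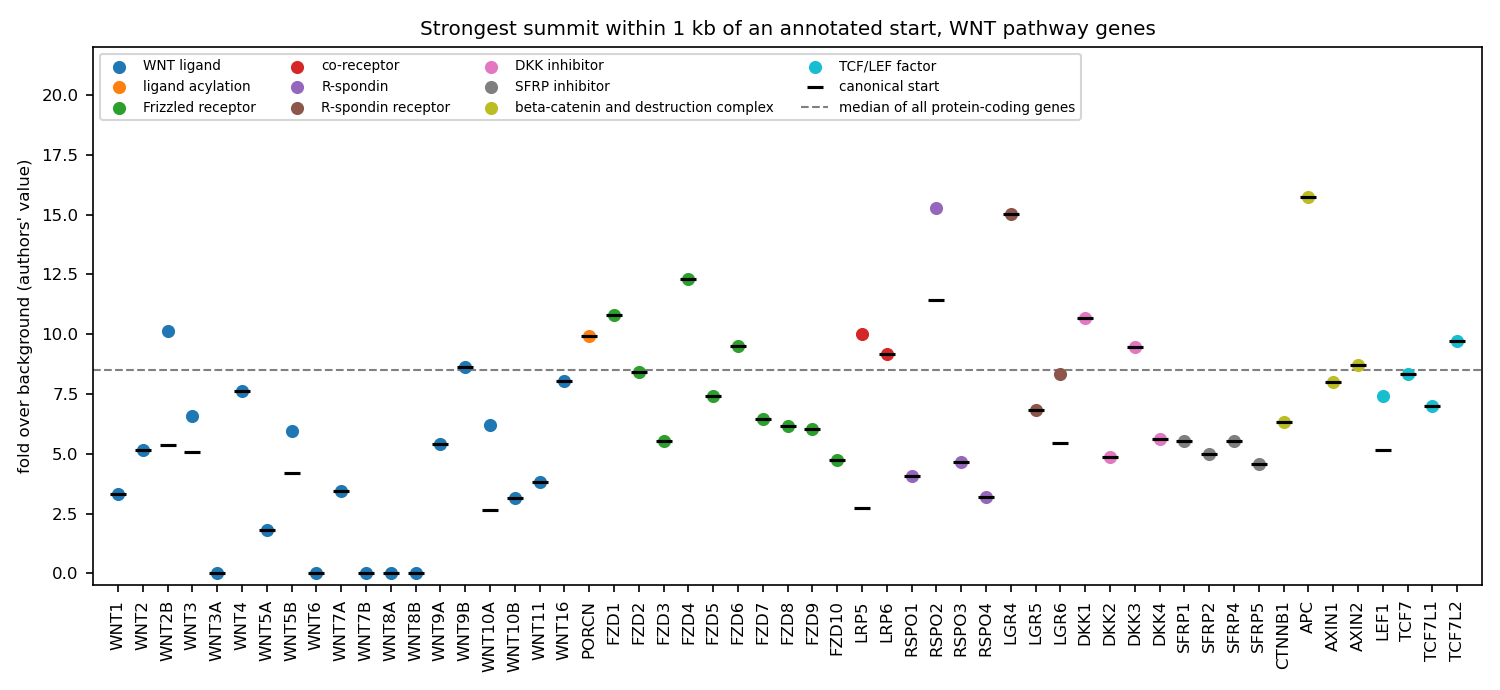
Start fold of each of the 55 members (points, coloured by role) and fold at the canonical transcript start alone (black dashes), on a linear axis, with the median of all protein-coding genes at 8.48 (dashed line). The 5 members at 0 are ligands, and the highest are APC at 15.7, RSPO2 at 15.3 and LGR4 at 15.02.

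Among the 19 WNT ligands, 14 had a start region, and the median start fold was 3.83. Only WNT2B (10.1) and WNT9B (8.64) stood above the median of all protein-coding genes. WNT2B reached its value at an upstream start 42.4 kb before the canonical one, in the region chr1:112465959-112466608. It had 5.37 at a summit 951 bp upstream of the canonical start. WNT9B reached 8.64 at the canonical start, in chr17:46850931-46852268 with the summit 37 bp upstream. WNT16 followed with 8.04 and WNT4 with 7.61, while WNT9A had 5.40 and WNT2 had 5.18. Ligands at the low end were WNT5A, WNT10B, WNT1, WNT7A and WNT11, with start folds of 1.83, 3.17, 3.34, 3.46 and 3.83. WNT5A, which acts mostly outside the beta-catenin branch, had 1 summit, 250 bp downstream of the canonical start in an exon (chr3:55486897-55487320), with a −log10 p of 6.26 where the lowest value in the list was 5.72.

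WNT3 is the ligand that forms the primitive streak in the mouse embryo. It had 3 start regions, at 5.07 for the canonical start, 6.57 for a start 46.4 kb further into the gene and 4.35 for a start 14.5 kb upstream, the last shared with the outermost start of WNT9B. Elsewhere too, ligands had their strongest start summit away from the canonical start. WNT5B had 5.96 at a start 54.6 kb upstream and 4.19 at the canonical start. WNT10A had 6.21 at a start 12.4 kb downstream and 2.65 at a summit 728 bp upstream of the canonical start.

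No start region was listed for WNT3A, WNT6, WNT7B, WNT8A and WNT8B. At WNT3A the closest summit was 1937 bp upstream of the canonical start with a fold of 3.08, and at WNT7B 1591 bp upstream with 5.70. At WNT6 it lay 1269 bp downstream, in an intron, with a fold of 11.5 (chr2:218860747-218861406). The summits just inside the 1000 bp limit were a weaker one of SFRP2, 972 bp upstream of its start, and a weaker one of LGR5, 969 bp downstream of a start. Just outside it were summits of WNT2B, 1002 bp downstream of its nearest start, and of WNT6, 1109 bp downstream of its nearest start. At WNT8A the nearest summit was 1811 bp upstream (4.55), and at WNT8B it was 18.7 kb into the gene (7.69). With a limit of 2000 bp, WNT8B alone had no start region.

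PORCN, the acyltransferase that adds the lipid to WNT proteins, had 1 start region with a fold of 9.93, 42 bp upstream of a start (chrX:48508573-48509491). The divergent transcript PORCN-DT also has a start within 1000 bp of this summit. Of the 91 distinct start regions of members, 16 lay within 1000 bp of a start of another gene of any type. Whether this is more or less than at other protein-coding genes was not tested.

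All 10 Frizzled receptor genes had a start region, and 9 of them had exactly 1. The start folds ran from 4.74 at FZD10 to 12.3 at FZD4, with a median of 6.94. FZD4 (chr11:86954809-86956588, summit 67 bp upstream) and FZD1 at 10.8 (chr7:91263920-91265499, summit 43 bp upstream) were the highest, and FZD6 at 9.49 was the only other Frizzled gene above the median of all protein-coding genes. FZD7, a Frizzled receptor gene with high expression in human embryonic stem cells, had 6.44 with the summit 163 bp upstream. FZD2 had a weaker start region of 6.60 beside its main one of 8.40. FZD5, FZD8, FZD9 and FZD3 had 7.43, 6.16, 6.03 and 5.53. For all 10 the strongest summit was upstream of the nearest annotated start, by 11 to 241 bp, as it was in 39 of the 50 members with a start region.

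The co-receptors differed in where the signal lay. LRP6 had 9.16 in 1 region at its canonical start, 283 bp upstream (chr12:12266314-12267496). LRP5 had only 2.74 at its canonical start and 9.996 at the last of its annotated starts, 134 kb into the gene (chr11:68446880-68447846). A fold over all annotated starts therefore puts these genes side by side, while the canonical starts alone put LRP5 far lower.

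R-spondin genes all had start regions, with RSPO2 apart from the rest. RSPO2 had 15.3 at a start 10.5 kb inside the gene and 11.4 at the canonical start, whereas RSPO3, RSPO1 and RSPO4 had 4.65, 4.05 and 3.20. Of the R-spondin receptors, LGR4 had 15.02 at its canonical start (chr11:27471581-27473327, summit 84 bp upstream), at percentile 90.7 of all protein-coding genes. LGR6 had 8.34 at a start 20.4 kb into the gene and 5.46 at a summit 806 bp upstream of the canonical start. The region over the canonical LGR6 start had 3.67. LGR5, itself a WNT target and stem cell marker in the gut, had 6.82 at the canonical start in a region with 7 summits (chr12:71438727-71440831).

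The secreted inhibitors all had start regions. DKK1, which binds LRP5 and LRP6 and is induced by the pathway it blocks, had 10.7 with the summit 44 bp upstream (chr10:52313264-52315107). DKK3 had 9.48, DKK4 5.63 and DKK2 4.86. The SFRP genes, whose products bind WNT proteins, lay close together: SFRP4 had 5.54, SFRP1 5.52, SFRP2 5.00 and SFRP5 4.58, all below the median of all protein-coding genes.

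Start folds of beta-catenin and destruction complex genes ranged from 6.32 to 15.7. APC, a scaffold protein of the destruction complex, had 15.7 at its canonical start (chr5:112737485-112738702) and 13.9 at its upstream start 30.4 kb away (chr5:112707147-112708251). CTNNB1, which encodes beta-catenin, had 6.32 at its canonical start (chr3:41198644-41200196) and 4.62 at starts 36.1 kb into the gene. AXIN2, a feedback inhibitor induced by the pathway, had 8.73 with the summit 3 bp upstream (chr17:65560705-65562180), and AXIN1, its constitutive relative, had 8.01.

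All 4 TCF and LEF genes had 3 or more start regions. The share of all protein-coding genes with 3 or more is not given here. Such a count can grow with the number of annotated starts, which was 25 for TCF7L2, 21 each for LEF1 and TCF7, and 4 for TCF7L1. TCF7L2 had 5, led by 9.70 at the canonical start (chr10:112949574-112950424) and 7.43 at starts 175 kb further on, which begin shorter transcripts. TCF7 had 8.33 at the canonical start (chr5:134113942-134115031) and 6.81 at internal starts 25.9 kb downstream. LEF1 had 5.14 at the canonical start and 7.43 at a group of starts 1.13 kb and more into the gene (chr4:108166490-108166998), where its antisense gene LEF1-AS1 also starts. TCF7L1, a repressor of WNT targets in pluripotent cells, had 7.01 (chr2:85132844-85133700). Across the members, 8 had a higher fold at another start than at the canonical one: WNT2B, WNT3, WNT5B, WNT10A, LRP5, RSPO2, LGR6 and LEF1. Grouping starts no more than 1000 bp apart gave 138 start groups, of which 74 had a region. The matching shares over all protein-coding genes are not given here, so neither count can be called particular to the members.

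Start accessibility is known to follow CpG content, so the members were also placed by the ratio of observed to expected CpG within 500 bp of the canonical start. Of the members, 21 fell in the highest quartile of protein-coding genes, and 18 of those had a start region, against 98.7% of all genes in that quartile. The 3 exceptions were WNT3A, WNT6 and WNT7B, with ratios of 0.848, 0.872 and 0.842. In the quartile below it all 20 members had one, against 98.0% of all genes. Median start folds in these quartiles were 6.32 and 6.18 for members and 9.42 and 10.3 for all genes. In the next quartile down all 11 members had a start region, against 87.9% of all genes. There the median start folds were closer, at 8.04 for members and 9.46 for all genes. WNT8A and WNT8B had CpG-poor starts, with ratios of 0.125 and 0.126, and belonged to the lowest quartile, where 39.9% of genes had a start region.

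**Figure D2:**
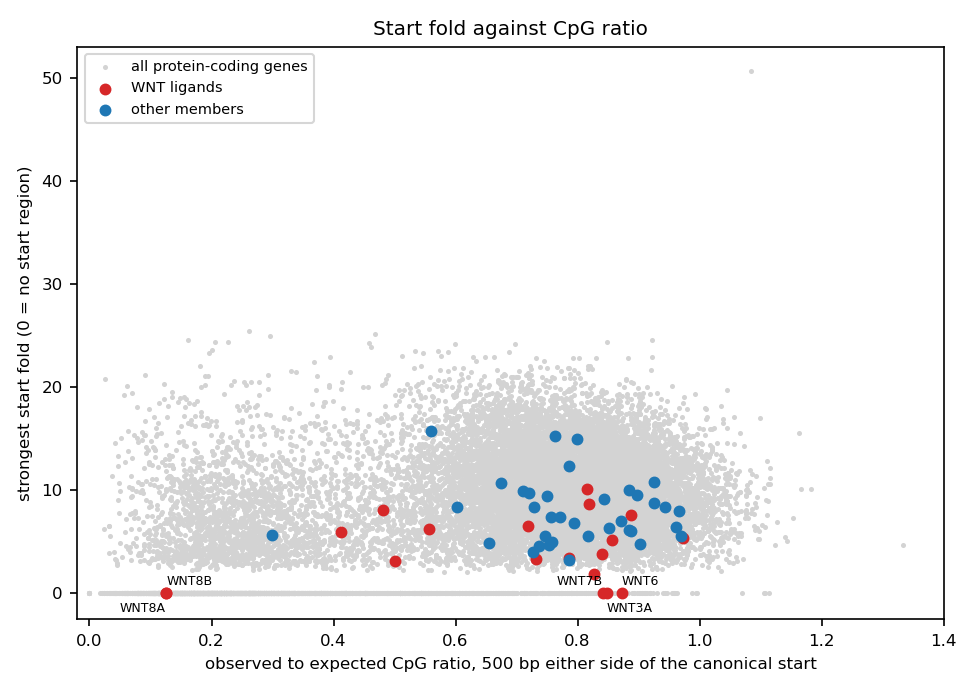
Start fold (0 where there is no start region) against the observed to expected CpG ratio around the canonical start, for WNT ligands (red), other members (blue) and all protein-coding genes (grey). WNT3A, WNT6 and WNT7B sit at 0 with ratios between 0.842 and 0.872, while WNT8A and WNT8B sit at 0 at the CpG-poor end.

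Every member had other regions, as did 97.3% of all protein-coding genes. The median was 10 per member against 8 over all protein-coding genes, and per Mb of the gene and its flanks it was 67.8 against 56.8. Of 55 members, 36 lay above the median density of all protein-coding genes and 10 above its 90th percentile, which is 103 per Mb. Other regions of members that lay away from any protein-coding start numbered 544, of which 223 were inside the gene, 207 of these in introns, 174 upstream and 147 downstream. Their median fold was 4.79 and their median width 415 bp, against 5.19 and 421 bp for the 136394 such regions in the whole list. In 46 of the 50 members with a start region, an other region was stronger than the start, against 70.2% of all genes with a start region. Both figures count every other region, including those at protein-coding starts of neighbouring genes.

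**Figure D3:**
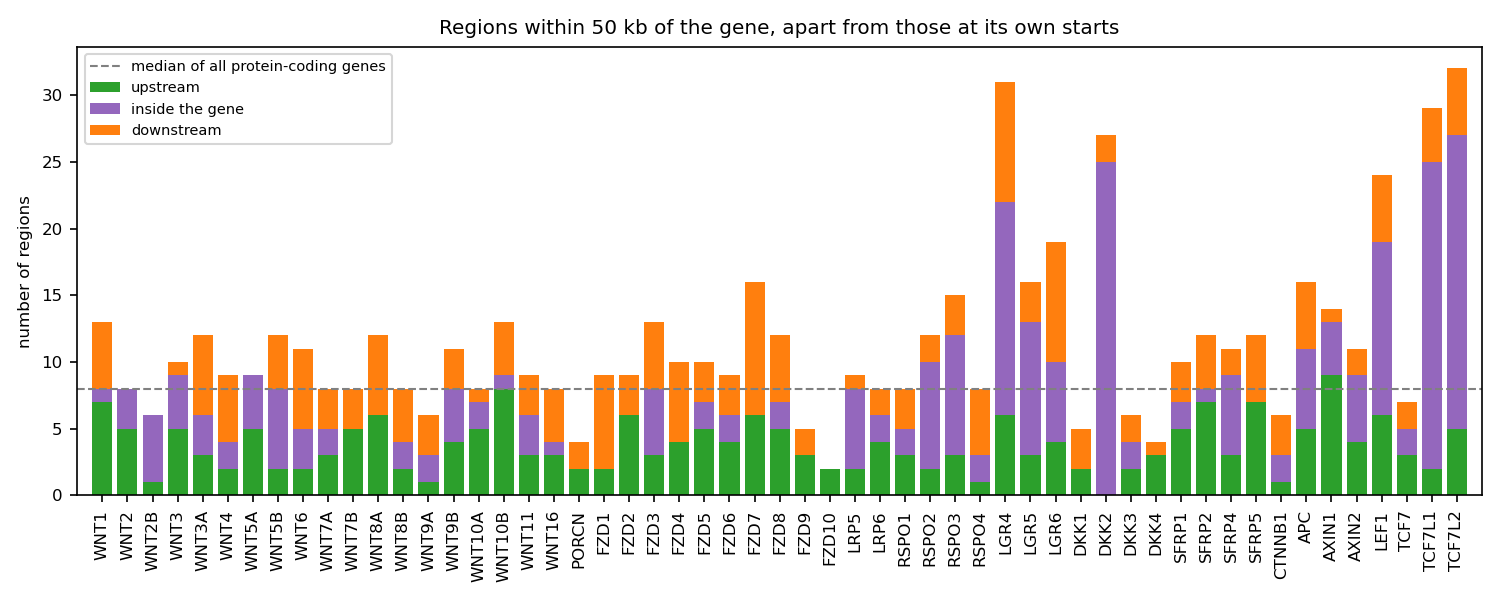
Number of other regions of each member, split into those upstream of the gene, inside it and downstream of it, with the median of all protein-coding genes at 8 (dashed line). TCF7L2 with 32, LGR4 with 31 and TCF7L1 with 29 are the highest, and FZD10 with 2 is the lowest.

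The TCF and LEF genes and the R-spondin receptors held most of the members with many other regions. TCF7L2 had 32, of which 22 lay inside the gene, LGR4 had 31, TCF7L1 29, DKK2 27 and LEF1 24. These are long genes, and density separated them: LGR4 had 150 other regions per Mb (percentile 98.9 of all protein-coding genes), LEF1 108, TCF7L1 105 and TCF7L2 100.8, whereas DKK2, which spans 362 kb, had 58.4 (percentile 52.2). TCF7, by contrast, had 7 other regions.

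Short genes could also be dense. FZD7, whose span is 4.59 kb, had 16 other regions, or 153 per Mb, at percentile 99.0. The strongest of them lay 30.9 kb downstream of the start with a fold of 12.2, 10.2 kb upstream with 11.7 and 37.6 kb upstream with 10.9, each above the start fold of 6.44. FZD10, of similar length at 3.28 kb, had 2 other regions, or 19.4 per Mb (percentile 8.90), at folds of 3.41 and 4.79. The WNT1 and WNT10B genes had 125 and 122 per Mb.

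**Figure D4:**
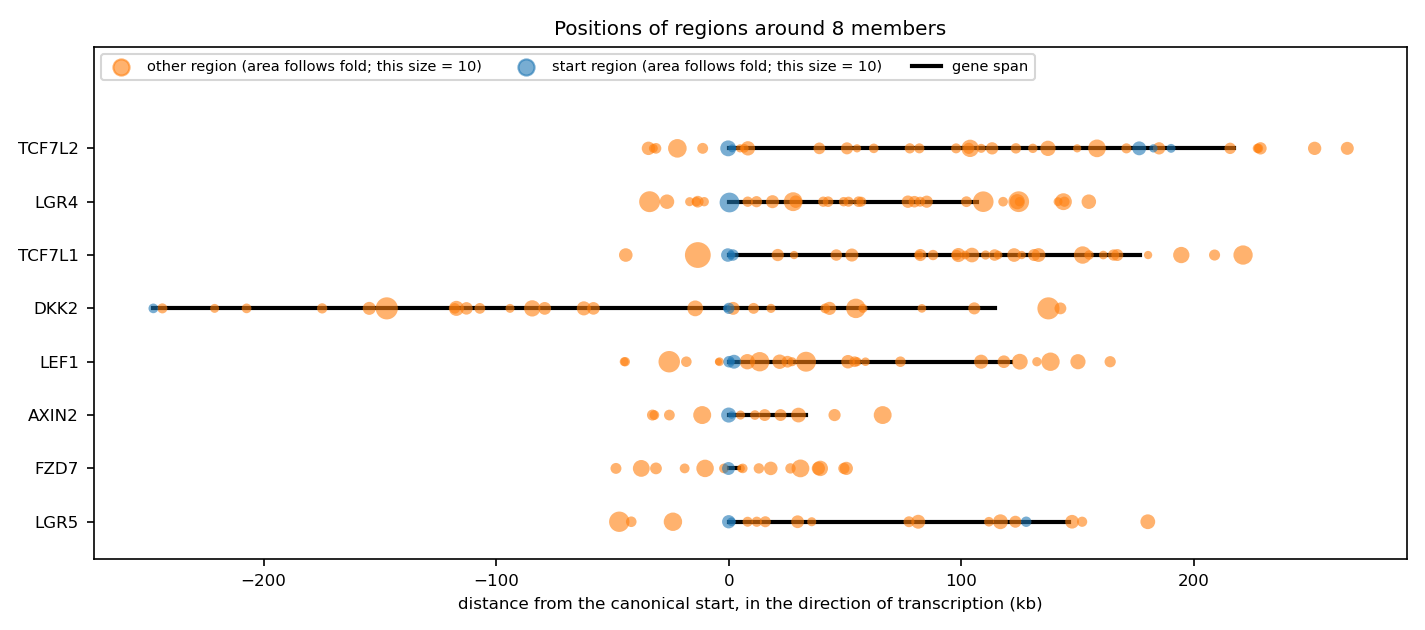
Positions of start regions (blue) and other regions (orange) around 8 members, in kb from the canonical start in the direction of transcription, with the area of each point proportional to fold and the gene span as a black line. The largest point, 13.3 kb upstream of TCF7L1, has a fold of 25.6, and the 16 other regions of FZD7 flank a gene of 4.59 kb.

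The strongest other region of any member lay 13.3 kb upstream of TCF7L1 with a fold of 25.6 (chr2:85119802-85120331), against 7.01 at the TCF7L1 start. A region 154 kb upstream of the canonical SFRP4 start, and within 50 kb of the annotated gene, had 20.8 (chr7:38070566-38071195). DKK2 had 18.8 in an intron 147 kb upstream of the canonical start (chr4:107183054-107183519) and 18.7 downstream of the gene (chr4:106898500-106898938). These regions lay between genes or in introns and at no annotated start.

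RSPO3 had a region of 18.4 located 48.6 kb upstream (chr6:127069751-127070404), nearly at the 50 kb limit. LEF1 had 1 of 17.7 located 25.6 kb upstream (chr4:108194263-108194712), against 7.43 at its starts. A region downstream of both WNT6 and WNT10A had 17.4 (chr2:218908745-218909560), with a summit 49.3 kb from the WNT6 start and 28.3 kb from the canonical WNT10A start, and lay at the start of a gene that is not protein-coding. LGR4 had 16.5 in a region 125 kb from its start, inside the neighbouring gene CCDC34 (chr11:27347916-27348490). The remaining 2 of the 10 strongest were starts of other genes: GNL2 near RSPO1 (17.0) and LIN7C near LGR4 (16.8).

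AXIN2, much used as a readout of the pathway, had 11 other regions at 82.7 per Mb. The strongest lay 11.4 kb upstream of its start (12.4, chr17:65572545-65573559) and 66.2 kb downstream of it (12.3, chr17:65495001-65496019), and 5 lay in its introns with folds from 3.17 to 8.38.

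Some ligand genes are neighbours, and their regions cannot be told apart by distance alone. All 14 regions of WNT1, start and other together, were among the 15 of WNT10B (93.3% of the latter). The 11 regions of WNT6 were the 11 of WNT10A, and WNT3 and WNT9B shared 10 of 13 each (76.9%). The ligands are therefore not separate cases in counts of other regions.

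The TCF/LEF string was rare near the strongest summits. There, 0 of 91 start regions of members held it, against 0.56% of all start regions. A count of 0 allows a share of up to 3.30% by the rule of 3 counts, and the exact binomial interval reaches 3.97%. Among other regions away from protein-coding starts, 7 of 544 held it (1.29%, 95% exact binomial interval 0.519% to 2.63%) against 1.4%. The 7 belonged to LEF1 (2 regions), LGR4, LGR5, LRP6, TCF7 and WNT9A. Counting every summit, 4 of 91 start regions held the string (4.40%, 1.21% to 10.9%) against 1.27% of all start regions, and they were those of AXIN2, LGR5, WNT5B and WNT16. At AXIN2 the summit lay 835 bp downstream of the canonical start with a fold of 2.13, and at LGR5 594 bp upstream with 3.45.

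For the CTCF string in other regions, the interval of the members' share did not hold the share in the whole list. Among all the strings searched, in start and in other regions, this was the only such interval. The intervals were not adjusted for the number of strings and region classes looked at. The string was found in 13 of 544 other regions of members (2.39%, 1.28% to 4.05%) against 0.837% of all such regions, and in 3 of 91 start regions (3.30%) against 1.76%. Those 3 belonged to WNT1, WNT2B and WNT7A. The 13 other regions included 1 in an intron of WNT3, 1 in an intron of WNT9B and the region of 17.4 downstream of WNT6 and WNT10A, and this difference was not tested. The SOX string was in 18 other regions of members (3.31%, 1.97% to 5.18%) against 4.4%, and in 3 start regions (3.30%) against 1.68%. The OCT-SOX string was in 3 other regions (0.551%, 0.114% to 1.60%) against 1.05%, and in 0 start regions, with the same limits, against 0.263%. ZIC factors, expressed in primed pluripotent cells, have the string CAGCAGG, found in 57 other regions (10.5%, 8.03% to 13.4%) against 9.47% and in 2 start regions (2.20%) against 5.64%. The GC box GGGCGG was in 36 start regions (39.6%, 29.5% to 50.4%) against 38.2%, and in 33 other regions (6.07%) against 5.39%.

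**Figure D5:**
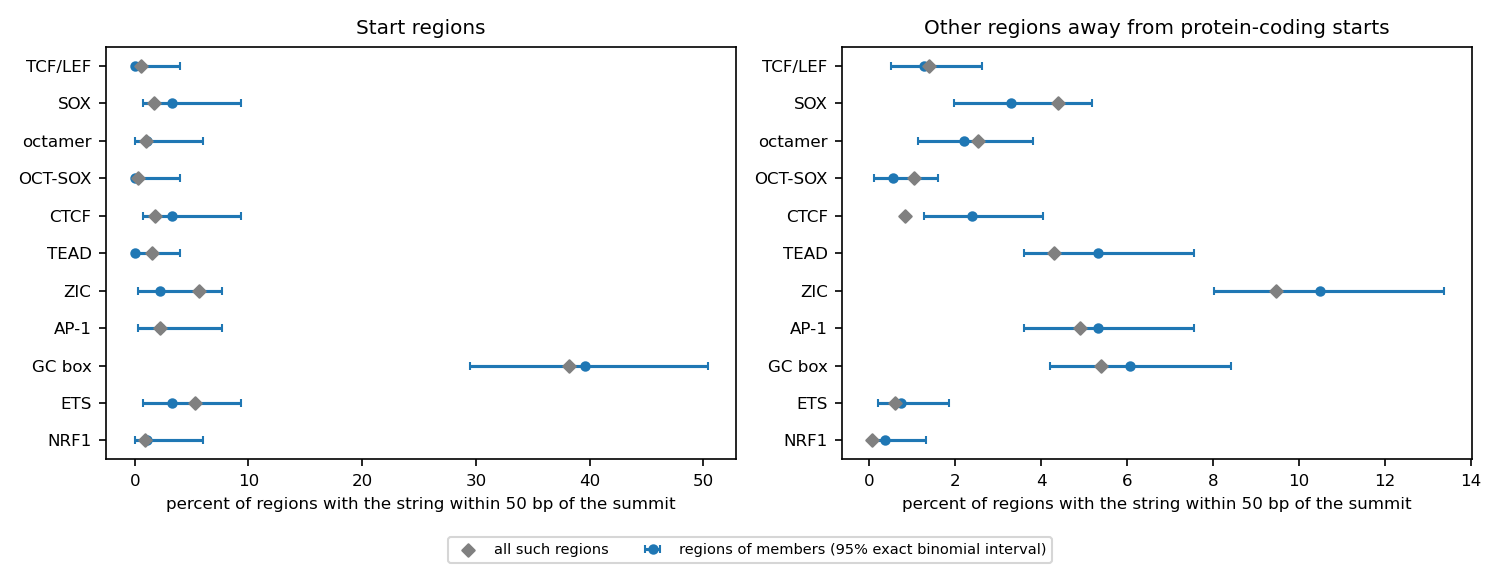
Percent of start regions (left) and of other regions away from protein-coding starts (right) with each string on either strand within 50 bp of the strongest summit, for members (blue, with 95% exact binomial intervals) and for all such regions (grey diamonds). The CTCF string in other regions is 2.39% in members and 0.837% in all such regions, while the TCF/LEF string is 1.29% and 1.4%.

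A further 46 genes of the pathway, such as the DVL transducers, GSK3 kinases, ROR receptors and TLE co-repressors, were read in the same way. Of these, 45 had a start region (97.8%), with a median start fold of 7.82, and only SOST, an inhibitor made in bone, had none. The highest were MUSK (20.5), a muscle receptor kinase, and RNF43 (20.2), a ubiquitin ligase that removes Frizzled receptors from the cell surface. SP5, a transcriptional target of the pathway, had 4.70 and NOTUM, an enzyme that removes the lipid from WNT proteins, had 3.35. Their median of other regions was 12, or 76.5 per Mb.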

How the data were processed

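The data are 1 deposited list of accessible regions in narrowPeak layout, shared by 2 ATAC-seq samples of H1 cells. Per the submitters' processing notes the build was GRCh38, and all 24 chromosomes of the list were in the hg38 reference with 0 rows past a chromosome end. Aligner, caller, caller settings and filters: not given in the sources used here. Any of them could change which summits are listed. Fold is the authors' ratio at a summit, and what it is relative to is unstated. The authors' −log10 p was used to rank regions, their deposited summit offsets to place summits, and the deposited score was left aside. Library depths were not analysed here, so the depth behind each value is unknown.

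Summits listed under identical coordinates were merged into 1 region. GENCODE release 44 gave the starts, and symbols were matched in it. Strings were searched on both strands of windows reaching 50 bp to either side of the strongest summit, and the octamer and OCT-SOX strings can overlap. Binomial intervals are exact (Clopper-Pearson) at 95% and cover counting error only. Named were the 2 highest members of each role, every member without a start region, the 11 genes of the co-receptors, PORCN, the destruction complex and the TCF/LEF factors, the 5 members with the most other regions and the 10 strongest other regions. The accounts of FZD7, FZD10, the AXIN2 surroundings and the low-fold ligands fall outside this rule and were chosen after their values were seen. The assignment of summits to genes was tested on simulated data. The members and lists were chosen with earlier results of these data known. Computation used Python 3.11.15, pandas 2.3.3, numpy 2.4.6, scipy 1.17.1 and pysam 0.24.0.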

Additional observations from a re-analysis of the deposited data

How the results depend on the processing

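The number of members with a start region lay between 42 and 54 over the alternatives (500 or 2000 bp, canonical or outermost start, strongest summits only, region overlap, regions above the median −log10 p), and the members' median start fold was below that of all protein-coding genes in each. With 2000 bp, 54 of 55 members had a start region, against 83.6% of all protein-coding genes. With regions above the median −log10 p, 42 of 55 members had one, against 74.2%, a narrower gap than in the main run. With the outermost 5′ end only, the median start fold was 5.40 (all genes 7.22) and the start regions numbered 53 instead of 92. Only regions above the median −log10 p gave 59 start regions, a median of 5 other regions and 33.7 per Mb (all genes 4 and 29.4). Flanks of 25 kb and 100 kb gave medians of 6 and 17 other regions (all genes 5 and 15), and 50 kb around the canonical start gave 8 (all genes 5). The TCF/LEF share was 4.40% in start regions with every summit counted and 3.68% in other regions with windows of 100 bp to either side (all such regions 1.27% and 3.10%); wider windows and more summits give more chances of a match by construction. The CTCF interval in other regions left out the share in the whole list in every alternative run. With regions above the median −log10 p it did so narrowly (1.36% to 6.06%, against 1.24%). These runs reuse regions of the main run, so they are not separate support. With windows of 100 bp, the intervals of the TEAD, GC box and NRF1 strings in other regions also left out the share in the whole list. The interval of the ZIC string in start regions did so too. No paired analysis was possible because there is 1 group and no values per sample, and for the same reason no replicate could be left out.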
